A study of Homo sapiens with 4 samples.

Results

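Serpins and other protease inhibitors were measured in cells of a pair of nasopharyngeal carcinoma lines on 4 Affymetrix arrays. The groups, with a single array each, were HK1EBV given 110 µM CAPE, HK1EBV given 0.1% DMSO, HK1 given 110 µM CAPE and HK1 given 0.1% DMSO, all for 24 h. CAPE, caffeic acid phenethyl ester, is a phenolic compound found in propolis and known as an inhibitor of NF-κB. HK1EBV is by its name the HK1 line with Epstein-Barr virus, but the labels do not describe the infection and say of both lines only that they derive from this carcinoma. No source used here says whether either line is a single clone.

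The members were all genes with a symbol starting with SERPIN, SPINK or SPINT, plus SLPI, PI3, CSTA, CSTB and CST6, with the collagen chaperone gene SERPINH1 left out. They numbered 48 of 18323 genes with a probe set of 1 symbol, each from 1 probe set. By symbol they fell into 8 groups, with 12 members of serpin clade A, 12 of clade B, 1 of clade E (SERPINE2) and 7 of other serpin clades. The others were 7 SPINK genes, 4 SPINT genes, the 2 genes SLPI and PI3 and 3 cystatins. Values were RMA values taken as log2, and a level of one gene was not set against that of another. Of the 48 members, 30 had a mean level at or above the 25th percentile of all probe sets and were among the 15194 genes tested.

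A serpin presents an exposed loop as bait, is cut by its target protease and traps it by folding the loop into its body. Clade A serpins are mostly secreted by the liver, clade B serpins mostly stay inside the cell and several are typical of squamous epithelium, and clade E serpins act in the extracellular matrix on thrombin and plasminogen activators. SPINK genes encode Kazal-type inhibitors, SPINT1 and SPINT2 Kunitz-type inhibitors of epithelial surface proteases, SLPI and PI3 small inhibitors of neutrophil elastase with a WAP fold, and the cystatins inhibitors of cysteine cathepsins.

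The array medians lay between 2.23 and 2.27. All 6 epithelial and squamous markers measured, CDH1, EPCAM, KRT5, KRT8, KRT18 and KRT19, were above the median of all probe sets, with list medians of 7.23 to 7.39 on the arrays. KRT8, at 2.26 to 3.05, and KRT19, at 2.43 to 2.91, were nearer to that median of 2.26. Of markers of other cell types, 4 of 6 fibroblast, 1 of 4 leukocyte, 2 of 4 endothelial and 2 of 4 hepatocyte genes reached the 25th percentile. Above the median of all probe sets were 2 fibroblast genes, COL1A1 and COL3A1, and 0 genes of the other lists. The medians of these lists, fibroblast first and in the same order, were 1.72 to 1.95, 0.61 to 0.72, 1.004 to 1.14 and 0.93 to 1.04 on the 4 arrays. No group had a replicate, and the labels name no separate cultures, so p-values hold no spread between cultures. The lines, or the treatments, stood in for replicates. The p-values rest on how far their differences disagreed, with 1 residual degree of freedom, and on a variance that limma pools over all genes tested. In RNA of whole cultures, fewer cells of a type and less RNA per cell cannot be told apart.

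Upstream sequence is shown for the serpin genes whose RNA differed most between treatments or lines and which the RefSeq promoter table (build GRCh38.p14) holds. Each run is the 250 bases before the annotated start, 5′ to 3′ on the gene's strand. Capitals mark matches, on either strand, to TGANTCA (AP-1), TGACNNNGC (core of the antioxidant response element), TGATGNAA (ATF4 element), ACGTG (core of the hypoxia element) and the NF-κB pattern, GGG and CC with any 5 bases between them.

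SERPINE2, chr2:224031479-224031728, minus strand: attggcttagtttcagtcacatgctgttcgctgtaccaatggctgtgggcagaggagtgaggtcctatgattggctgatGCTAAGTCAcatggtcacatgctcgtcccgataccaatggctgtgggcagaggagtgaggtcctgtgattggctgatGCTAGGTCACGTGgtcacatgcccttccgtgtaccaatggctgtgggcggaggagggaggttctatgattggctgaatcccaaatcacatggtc
SERPINB1, chr6:2841864-2842113, minus strand: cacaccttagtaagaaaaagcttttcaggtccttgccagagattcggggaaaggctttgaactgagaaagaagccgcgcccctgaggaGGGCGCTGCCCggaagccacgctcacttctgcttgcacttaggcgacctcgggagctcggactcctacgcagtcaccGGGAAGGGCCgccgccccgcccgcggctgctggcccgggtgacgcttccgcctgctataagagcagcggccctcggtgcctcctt
SERPINB13, chr18:63587093-63587342, plus strand: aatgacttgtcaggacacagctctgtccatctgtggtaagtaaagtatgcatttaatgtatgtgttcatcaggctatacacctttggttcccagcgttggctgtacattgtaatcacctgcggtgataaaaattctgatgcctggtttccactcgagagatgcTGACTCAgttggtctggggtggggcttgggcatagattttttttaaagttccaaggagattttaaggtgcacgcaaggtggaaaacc
SERPINB8, chr18:63969831-63970080, plus strand: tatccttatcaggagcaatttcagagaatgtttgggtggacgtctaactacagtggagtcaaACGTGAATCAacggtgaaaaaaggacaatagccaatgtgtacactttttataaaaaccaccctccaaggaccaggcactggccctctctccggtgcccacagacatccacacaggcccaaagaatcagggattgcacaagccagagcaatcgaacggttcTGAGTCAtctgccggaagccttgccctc

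The SERPINE2 window held the TGACNNNGC pattern at 2 places and ACGTG, read on both strands, overlapping the second of them. SERPINB1 held the NF-κB pattern at 2 places, of which one also reads as the pattern on the other strand, shifted by 1 base. SERPINB13 held 1 match to TGANTCA and SERPINB8 held 2, of which one overlaps an ACGTG. Among 35116 promoter windows of the same length, TGANTCA was found in 6.57%, TGACNNNGC in 10.9%, TGATGNAA in 3.14%, ACGTG in 18.5% and the NF-κB pattern in 54.4%. Of the 33 members with a window, 5, 5, 2, 2 and 14 held these patterns in the same order. A match is a match of letters and was not tested for binding.

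The CAPE comparison asked which inhibitor genes differed after 24 h with the compound, in both lines or in one of them. SLPI, SERPINE2 and SERPINB1 were at least 2-fold higher with CAPE in both lines, and SERPINB13 was at least 1.5-fold lower in both. Clade A and SPINK genes differed by less than 1.5-fold in both lines, except SERPINA3 in HK1EBV, a dim gene, at 1.501-fold lower. Levels in both groups were low, at 0.26 to 0.99 for the 7 SPINK genes and at most 2.10 in clade A. This limits what their differences could show.

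SLPI encodes the secretory leukocyte protease inhibitor of mucosal fluids. Its level was 4.33 with CAPE and 3.18 with DMSO in HK1EBV, and 6.26 with CAPE and 5.04 with DMSO in HK1. Both CAPE arrays stood above the DMSO array of their own line, while the HK1EBV CAPE array stayed under both HK1 arrays. The difference was 1.15 in HK1EBV and 1.22 in HK1, or 2.21-fold and 2.33-fold.

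SERPINE2 encodes protease nexin-1, an inhibitor of thrombin and urokinase that acts at the cell surface and in the matrix. Its level was 5.52 with CAPE and 4.29 with DMSO in HK1EBV, and 5.15 with CAPE and 4.11 with DMSO in HK1. Both CAPE values lay above both DMSO values. The differences were 1.23 and 1.04 in HK1EBV and HK1, or 2.35-fold and 2.06-fold.

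SERPINB1, the intracellular inhibitor of neutrophil elastase and cathepsin G, stood at 4.81 with CAPE and 3.73 with DMSO in HK1EBV, and at 5.55 with CAPE and 4.53 with DMSO in HK1. Both CAPE values were above both DMSO values here as well, the nearest pair being 4.81 and 4.53. Within each line the difference was 1.08 in HK1EBV and 1.02 in HK1. SERPINB13, known as headpin or hurpin, is a keratinocyte serpin that inhibits cathepsins K and L. It stood at 3.96 with CAPE and 4.68 with DMSO in HK1EBV, and at 4.17 with CAPE and 5.36 with DMSO in HK1. It was the 1 member at least 1.5-fold lower in both lines, with differences of -0.72 in HK1EBV and -1.19 in HK1.

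**Figure D1:**
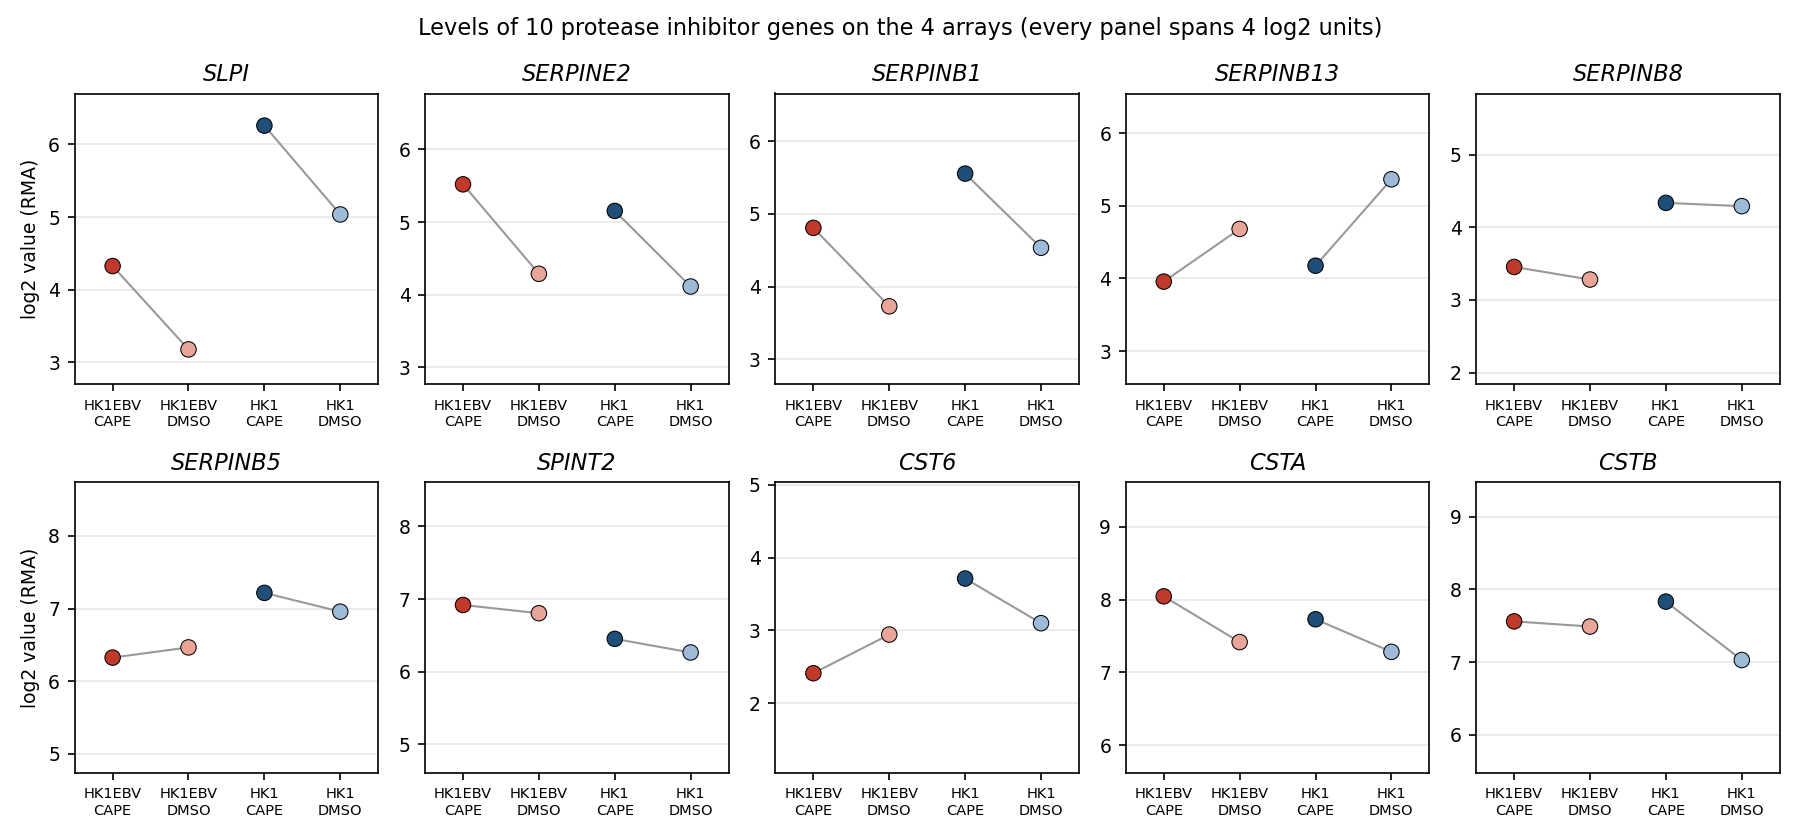
Levels of 10 member genes (log2 RMA value, vertical axis) on the 4 arrays, with 1 point for each array, a grey line joining CAPE and DMSO of a line, and a span of 4 log2 units in every panel. SLPI, SERPINE2 and SERPINB1 were higher with CAPE in both lines and SERPINB13 lower, while SLPI, SERPINB1, SERPINB8 and SERPINB5 were lower in HK1EBV than in HK1.

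Among the 3 cystatins, CSTB and CST6 had unequal CAPE differences in the lines, which were not tested against each other. CSTA encodes stefin A, a cytosolic cathepsin inhibitor of the squamous cornified envelope, and stood at 8.05 with CAPE and 7.42 with DMSO in HK1EBV, and at 7.73 with CAPE and 7.28 with DMSO in HK1. It was higher on both CAPE arrays, by 0.63 in HK1EBV and 0.45 in HK1. CSTB, encoding the related and widely expressed stefin B, stood at 7.56 with CAPE and 7.49 with DMSO in HK1EBV, and at 7.83 with CAPE and 7.03 with DMSO in HK1. Its difference was 0.07 in HK1EBV and 0.80 in HK1. CST6, the gene of the secreted cystatin E/M that inhibits legumain and cathepsins L and V, stood at 2.41 with CAPE and 2.94 with DMSO in HK1EBV, and at 3.71 with CAPE and 3.10 with DMSO in HK1. Its CAPE values lay on opposite sides of its DMSO values, with differences of -0.53 in HK1EBV and 0.61 in HK1.

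Among the Kunitz-type inhibitors, SPINT1 (known as HAI-1) and SPINT2 (HAI-2) restrain matriptase, prostasin and the activator of hepatocyte growth factor. SPINT1 stood at 5.75 with CAPE and 5.45 with DMSO in HK1EBV, and at 5.65 with CAPE and 5.31 with DMSO in HK1. It was higher with CAPE by 0.30 in HK1EBV and 0.34 in HK1, and SPINT2 by 0.11 and 0.19, each less than 1.5-fold. PI3, the gene of elafin, stood between 1.46 and 1.68 on the 4 arrays, with CAPE differences of -0.04 in HK1EBV and 0.20 in HK1. In clade B, SERPINB5, encoding the non-inhibitory serpin maspin, differed by -0.14 and 0.26, and SERPINB8, encoding a serpin known to inhibit furin, by 0.17 and 0.05. None of these genes reached 1.5-fold with CAPE in either line.

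Counted over the 30 members tested, 4 were at least 1.5-fold higher with CAPE in HK1EBV and 1 lower, against 3.9% and 3.63% of all genes tested. In HK1, 5 were higher and 1 lower, against 3.38% and 3.79%. In both lines together 3 were higher and 1 lower, against 1.35% and 1.56% of genes. At least 2-fold apart were 3 members in HK1EBV and 4 in HK1, against 1.22% and 1.36% of genes. The median CAPE difference of the 30 members was -0.03 in HK1EBV and 0.06 in HK1, beside -0.003 and 0.02 for all genes tested. By clade, the medians in HK1EBV and HK1 were -0.04 and -0.04 for the 9 clade A members tested, 0.02 and 0.16 for the 7 of clade B, and -0.08 and -0.19 for the 6 other serpins.

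**Figure D2:**
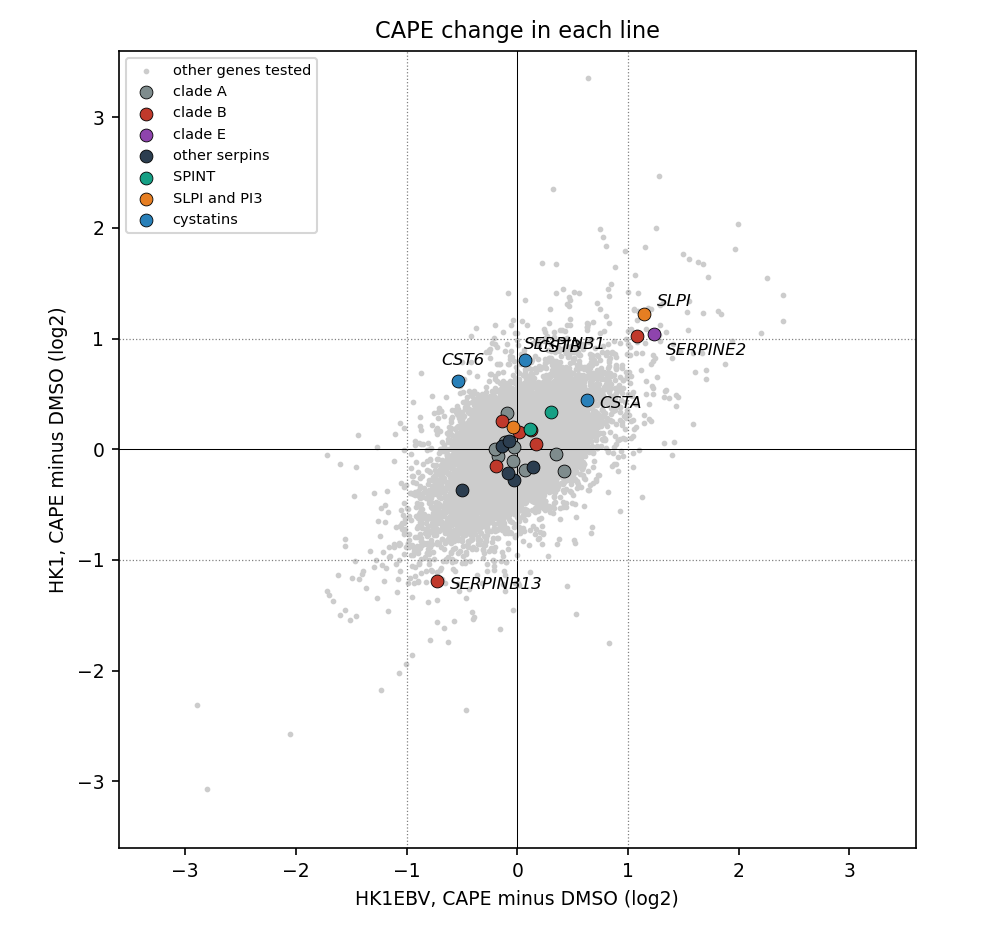
CAPE minus DMSO in HK1EBV (horizontal axis, log2) and in HK1 (vertical axis, log2) for the 30 members tested, coloured by group, over all other genes tested in grey, with dotted lines at 2-fold. SLPI, SERPINE2 and SERPINB1 lie beyond 2-fold in both lines, SERPINB13 lies in the lower left, and CST6 lies where the lines differ in sign.

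For a test, the CAPE differences of both lines entered 1 fit over all genes tested (limma, with cell line as a block and 1 residual degree of freedom). SLPI was higher by 1.18 ± 0.11 (moderated SE, n = 2 lines), SERPINE2 by 1.14 ± 0.12 and SERPINB1 by 1.05 ± 0.11, each with a limma adjusted p of 0.0672. SERPINB13 differed by -0.96 ± 0.15 (limma adjusted p = 0.0849) and CSTA by 0.54 ± 0.12 (limma adjusted p = 0.113). Thus 0 of 30 members passed the adjusted threshold of 0.05, where 0.00658% of all genes did, and 7 members had an unadjusted p under 0.05, where 19.5% of all genes did. This count of members past the adjusted threshold changed with the genes kept and the settings of the fit. Without the 57 genes whose residual was 0, these 5 genes passed, with limma adjusted p of 0.000751 for SLPI, 0.000954 for SERPINE2, 0.00138 for SERPINB1, 0.00385 for SERPINB13 and 0.0313 for CSTA, where 8.21% of all genes passed. With every gene kept, dim ones included, SLPI, SERPINE2 and SERPINB1 each had a limma adjusted p of 0.193. Without cell line as a block it was 0.807, 0.437 and 0.562 for these genes. Under both of these settings 0 of all genes passed.

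The second comparison asked how HK1EBV differed from HK1. SLPI was lower in HK1EBV, with differences of -1.93 with CAPE and -1.86 with DMSO, or 3.82-fold and 3.62-fold, the widest gap of any member tested under either treatment. Both HK1EBV levels, 4.33 and 3.18, lay below both HK1 levels, 6.26 and 5.04, so the groups did not overlap. How many of all genes tested separate in this way, by line or by treatment, was not counted. SLPI fell in HK1EBV in the fit over both treatments (-1.89 ± 0.11, moderated SE, n = 2 treatments, limma adjusted p = 0.0164).

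SERPINB8 stood at 3.45 with CAPE and 3.28 with DMSO in HK1EBV, and at 4.34 with CAPE and 4.29 with DMSO in HK1. It fell in HK1EBV, with a difference of -0.95 ± 0.11 (moderated SE, n = 2 treatments, limma adjusted p = 0.0396). SERPINB1 also fell in HK1EBV, at -0.78 ± 0.11 (limma adjusted p = 0.0471), with differences of -0.75 with CAPE and -0.81 with DMSO. Its levels did overlap, since the HK1EBV CAPE array at 4.81 lay above the HK1 DMSO array at 4.53.

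These 3 of 30 members were lower in HK1EBV and 0 higher, against 1.58% and 1.32% of all genes tested. With every gene kept, dim ones included, they did not pass (limma adjusted p of 0.116 for SLPI and 0.119 for SERPINB8 and SERPINB1), and 0 of all genes did. The same held without treatment as a block (limma adjusted p of 0.323, 0.165 and 0.599). Unadjusted, 7 members had p under 0.05, where 23.1% of all genes did. SERPINB5 stood at 6.32 with CAPE and 6.47 with DMSO in HK1EBV, and at 7.22 with CAPE and 6.96 with DMSO in HK1. Both HK1EBV values were below both HK1 values, at a mean difference of -0.69 ± 0.14 (limma adjusted p = 0.0769). SPINT2 ran the other way, with 6.92 with CAPE and 6.80 with DMSO in HK1EBV, and 6.45 with CAPE and 6.26 with DMSO in HK1, a mean difference of 0.50 ± 0.11 (limma adjusted p = 0.0852). Without the 57 genes whose residual was 0, SERPINB5 and SPINT2 passed (limma adjusted p of 0.0107 and 0.03), where 11.6% of all genes did. With every gene kept they did not (limma adjusted p of 0.154 and 0.145).

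The other members with a gap between the lines showed it under 1 treatment. CST6 differed by -1.30 with CAPE and -0.16 with DMSO, HK1EBV minus HK1. SERPINB13 differed by -0.22 with CAPE and -0.68 with DMSO. Little separated the lines in SERPINE2, at 0.37 with CAPE and 0.18 with DMSO, in SPINT1, at 0.10 and 0.14, or in CSTA, at 0.32 and 0.13. CSTB differed by -0.27 with CAPE and by 0.46 with DMSO, and PI3 by -0.22 and 0.02.

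At least 1.5-fold lower in HK1EBV were 5 members with CAPE and 4 with DMSO, against 4.76% and 3.96% of genes tested, and 3 under both treatments, against 2.22%. At least 1.5-fold higher were 0 members with CAPE, with DMSO or under both, against 5.37%, 4.4% and 2.06%. At least 2-fold apart were 2 members with CAPE, SLPI and CST6, and 2 with DMSO, SLPI and SERPINB8, against 2.05% and 1.87%. The median of the 30 members was -0.08 with CAPE and -0.05 with DMSO, beside -0.005 and 0.01 for all genes tested.

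**Figure D3:**
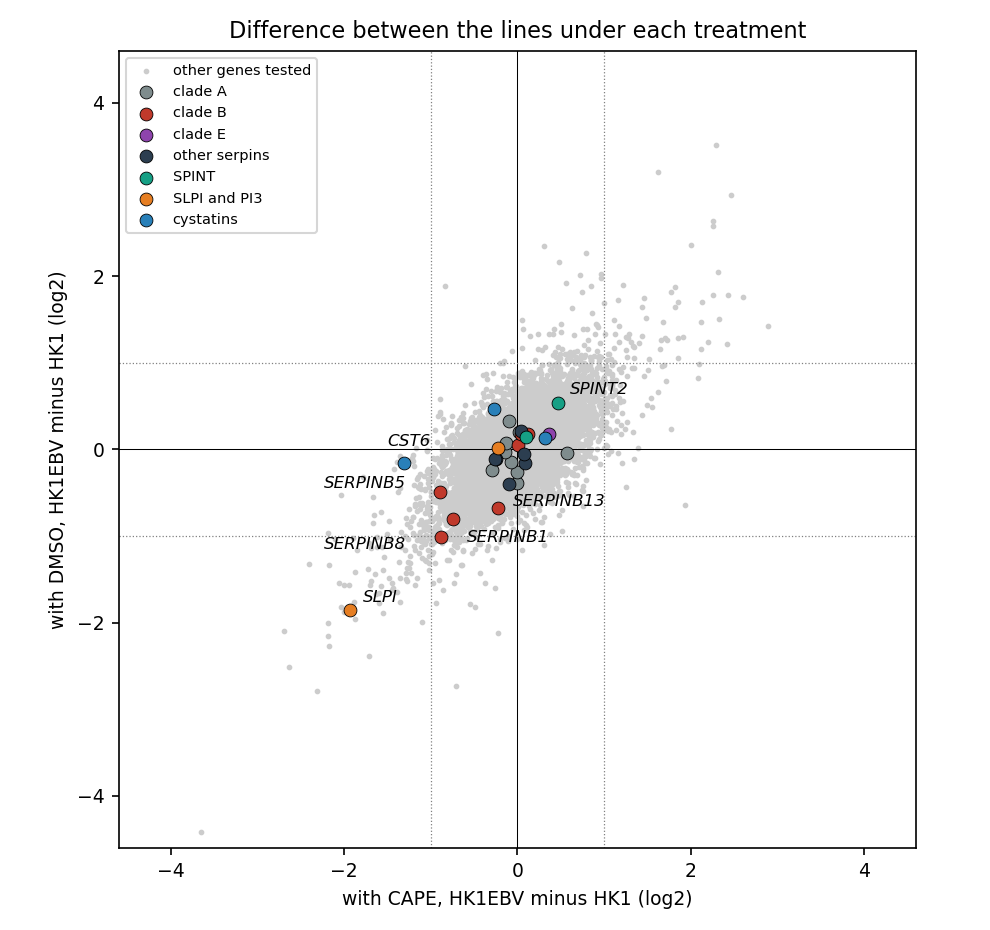
HK1EBV minus HK1 with CAPE (horizontal axis, log2) and with DMSO (vertical axis, log2) for the 30 members tested, coloured by group, over all other genes tested in grey, with dotted lines at 2-fold. SLPI stands apart at the lower left, SERPINB8, SERPINB1 and SERPINB5 lie between it and the centre, and SPINT2 is on the opposite side.

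Clade B was then divided by chromosome. Its genes form a pair of clusters, 3 members measured on chromosome 6 (SERPINB1, SERPINB9 and SERPINB9P1) and 9 on chromosome 18. Of the 9, SERPINB5, SERPINB13, SERPINB7 and SERPINB8 passed the filter, in this order along the chromosome. The median difference of these 4, HK1EBV minus HK1, was -0.55 with CAPE and -0.59 with DMSO. SERPINB7, the gene of megsin, went against the other 3, at 0.12 with CAPE and 0.18 with DMSO.

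Other genes of chromosome 18 were also lower in HK1EBV. The 201 of them that were tested had medians of -0.37 with CAPE and -0.37 with DMSO, and 52 and 57 of them were at least 1.5-fold lower, while 0 were 1.5-fold higher under either treatment. In the limma fit over both treatments, in which SERPINB8 passed as lower, 20 of these 201 genes passed as lower and 0 as higher. Of the 5 genes tested on each side of the serpin cluster, 9 of 10 were lower in HK1EBV under both treatments, with medians of -0.36 with CAPE and -0.30 with DMSO. PHLPP1, a phosphatase gene before the cluster, differed by -0.64 and -0.66, and TMX3 after it by -0.68 and -0.66. The part of this chromosome-wide shift in the values of SERPINB8, SERPINB5 and SERPINB13 was not tested. On chromosome 6, 776 other genes had medians of -0.01 and -0.01, and beside SERPINB1 at -0.75 and -0.81 stood SERPINB9, the granzyme B inhibitor gene, at 0.01 and 0.05, and the pseudogene SERPINB9P1 at 0.04 and 0.18.

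**Figure D4:**
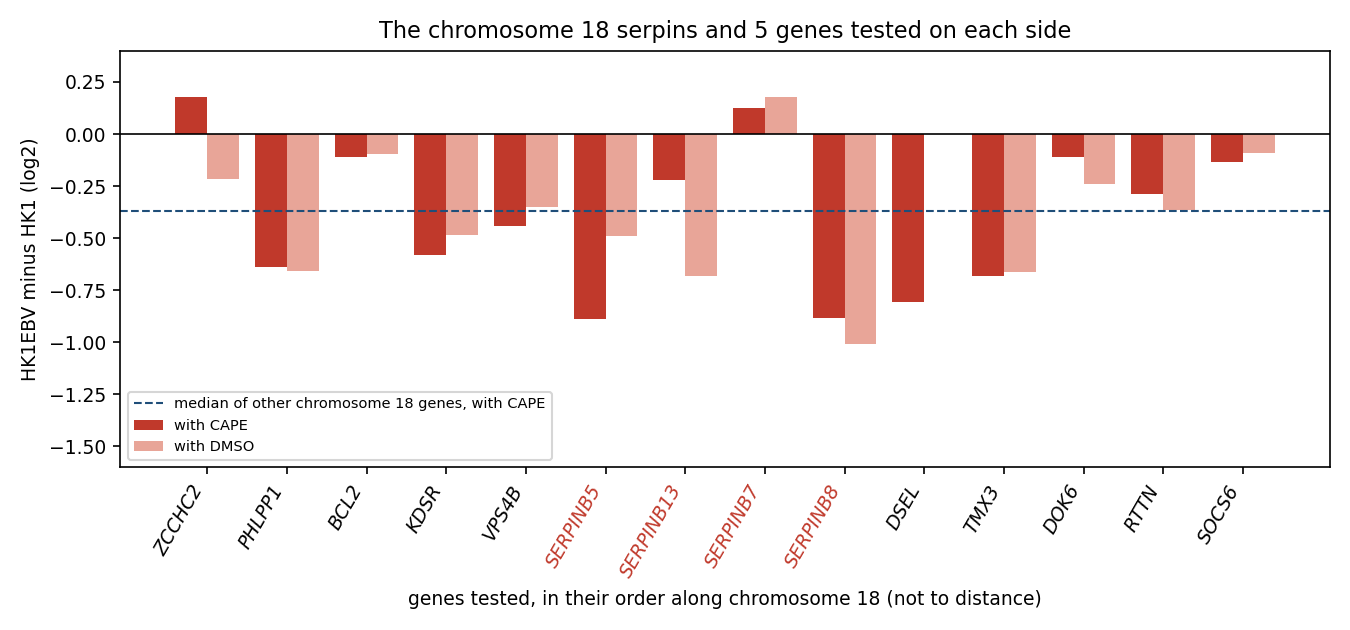
HK1EBV minus HK1 (log2, vertical axis) with CAPE and with DMSO for the 4 chromosome 18 serpins tested (red names) and the 5 genes tested on each side, in gene order, with a dashed line at the median of the 201 other chromosome 18 genes with CAPE, -0.37. SERPINB8 and SERPINB5 lie under that line under both treatments and SERPINB7 above 0.

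The remaining members had means below the median of all probe sets, except SERPINF1 and SERPINB7. Of clade A, SERPINA1, the gene of alpha-1-antitrypsin, stood at 1.15 with CAPE and 1.18 with DMSO in HK1EBV and at 1.44 and 1.43 in HK1. SERPINA3, the gene of antichymotrypsin, was below the filter at 0.67 with CAPE and 1.26 with DMSO in HK1EBV and 0.90 and 0.94 in HK1, and its difference of -0.59 in HK1EBV reached 1.5-fold. SERPINI1, encoding neuroserpin, stood between 1.21 and 1.47. SERPINB3 and SERPINB4, the squamous cell carcinoma antigens, are near-identical copies whose values may be mixed, and both were below the filter on every array, at 0.32 to 0.69 and 0.25 to 0.52.

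The 16 members tested that have not been named by rule ranged in their CAPE differences from -0.50 to 0.42 in HK1EBV and from -0.37 to 0.33 in HK1. HK1EBV minus HK1 ranged from -0.24 to 0.58 with CAPE and from -0.40 to 0.32 with DMSO. Among them, and chosen after its values were seen, SERPINF1, the gene of pigment epithelium-derived factor, had CAPE differences of -0.50 in HK1EBV and -0.37 in HK1. The others were SERPINB7, SERPINB9 and SERPINB9P1 of clade B, 8 of clade A, and the genes of antithrombin, heparin cofactor II, alpha-2-antiplasmin and C1 inhibitor. The 18 members below the filter, among them all 7 SPINK genes, lay between 0.18 and 1.26 with a range over the arrays of at most 0.59, and SERPINA6 and SPINK9 had 1 identical value on all 4 arrays.

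Proteases that such inhibitors can meet, and their cofactors, were read from a list of 54 genes, of which 48 were tested. With CAPE 2 were at least 1.5-fold higher in both lines, PLAU and PRSS8, and 1 lower, THBD, against 1.35% and 1.56% of all genes tested. With CAPE 0 passed the limma threshold, against 0.00658%. PLAU, the gene of urokinase, which SERPINE2 inhibits, stood at 5.53 with CAPE and 4.74 with DMSO in HK1EBV and at 7.06 and 5.99 in HK1. Like SLPI it was higher on each CAPE array and lower in HK1EBV, with a line difference of -1.39 ± 0.13 (moderated SE, limma adjusted p = 0.0274). PLAT, the gene of the other plasminogen activator, had CAPE differences of the opposite sign, -0.76 in HK1EBV and -0.36 in HK1. PLAUR, the gene of the urokinase receptor, differed by 0.35 in HK1EBV and 0.38 in HK1, and PLG, that of plasminogen, by -0.38 and -0.19. PRSS8, the gene of prostasin, a target of SPINT1 and SPINT2, was higher with CAPE by 0.68 in HK1EBV and 0.64 in HK1, and it fell in HK1EBV, at -1.65 ± 0.11 (limma adjusted p = 0.0202). ST14, the gene of matriptase, was higher by 0.47 and 0.37 with CAPE and had a line difference of 0.68 ± 0.11 (limma adjusted p = 0.0547). PRSS23 differed with CAPE by -0.32 in HK1EBV and -0.25 in HK1, and TMPRSS4 by 0.08 and 0.43.

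THBD, the gene of the thrombin cofactor thrombomodulin, had CAPE differences of -0.72 in HK1EBV and -1.56 in HK1. F3, the gene of tissue factor, differed by -0.56 in HK1EBV and 0.04 in HK1, while the coagulation factor genes F10 and F2 differed by -0.18 to -0.04 in either line. Of the cysteine cathepsin genes, CTSB was higher with CAPE by 0.33 in HK1EBV and 0.80 in HK1, and CTSV differed by -0.11 and 0.89. CTSO differed by 0.07 in HK1EBV and 0.66 in HK1, and CTSZ by 0.31 and 0.33. Between the lines 4 of the 48 genes tested passed, with PLAU, PRSS8 and TMPRSS4 (-0.87 ± 0.14, limma adjusted p = 0.04999) lower in HK1EBV and CTSH, named after its value was seen, higher (0.80 ± 0.11, limma adjusted p = 0.0453). These 3 lower and 1 higher stand beside 1.58% and 1.32% of all genes tested. Of 15 kallikrein genes, 0 reached 1.5-fold with CAPE in both lines, and KLK6 differed by -1.27 in HK1EBV and 0.02 in HK1. KLK10 differed by -0.75 in HK1EBV and 0.33 in HK1, KLK2 by -0.32 and -0.41, and KLK11 by 0.001 and 0.41. None (0) of the 3 leukocyte granule protease genes tested, ELANE, PRTN3 and GZMB, reached 1.5-fold with CAPE in either line.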

How the data were processed

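The deposited values are one table that the authors made by RMA, per the submitters' processing notes. RMA corrects background, brings arrays to one distribution and summarises probes. No source used here gives its version, the base of the log, any later shift or the genome build. The deposited values ran from -0.19 to 11.9, the range of a log scale, and were taken as log2. Per the labels' protocols, biotinylated cDNA was made from 250 ng of total RNA with the Affymetrix WT PLUS kit. The number of arrays, 4, limits the precision.

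Of 25800 probe sets, the 18612 with 1 symbol in the platform annotation were used, and the brightest was kept for each of 18323 genes. Genes with a mean of at least 0.997, the 25th percentile of all probe sets, were tested with limma 3.58.1 in R 4.3.3, with line and treatment as terms, 2-sided, and Benjamini-Hochberg adjustment over all 15194 genes. The cell line pairs the samples by design, and no replicate numbers are given. Differences within a line or treatment have no test and were counted at 1.5-fold and 2-fold.

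Members named were those at least 1.5-fold apart in any of 4 differences and 18 preset genes, of which 2 were not analysed here. For proteases up to 4 per role were named by the size of the mean CAPE change. Members and lists were chosen with earlier results of these data known. Gene order, chromosomes and promoter windows came from RefSeq tables of GRCh38.p14.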

Additional observations from a re-analysis of the deposited data

Results flagged for a closer look

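CST6 had CAPE differences of opposite sign in the lines that were at least 2-fold apart. Its CAPE change in HK1EBV minus that in HK1 was -1.15 on the log2 scale, from -0.53 in HK1EBV and 0.61 in HK1. With 1 array for each group this difference was not tested. Of all genes tested, 78 met the same criterion. Signs differed between the lines in 13 of the 30 members tested, beside 35.7% of all genes tested, and apart from CST6 these members differed by at most 0.62.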

How the results depend on the processing

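Members past the adjusted threshold for CAPE numbered 5 with arrays shifted to one median, with quantile normalization, with the 50th percentile filter and without genes of zero residual, and 4 with a robust prior or at an adjusted p of 0.10, against 0 with the main setting. For HK1EBV minus HK1 the count was 5 with the 50th percentile filter, with arrays shifted to one median, without genes of zero residual or at an adjusted p of 0.10, and 0 without the filter or without a replicate block, against 3. Over all genes tested, the calls for CAPE ranged from 0 to 1243 and for the lines from 0 to 1756 over these settings; the cause was not tested. Members at least 2-fold apart kept their counts in all 4 differences under every filter and scaling tried. A filter leaves the differences as they are and can only add or drop members. The probe set rule could not change these counts, since no member has more than 1 probe set. No mean difference of the 14 named members tested (0 of 28) changed sign when arrays were shifted to one median or quantile normalized. The other settings leave these mean differences as they are and could not change a sign. The shift to one median moves every gene alike, for SLPI from 1.1844 to 1.1837 with CAPE and from -1.8942 to -1.8769 between the lines. It could have changed only the signs of differences near 0. Leaving out an array was not run, because every group has 1. Dim probe sets limit what a fall could show.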

Other observations

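Genes tested beside SLPI on chromosome 20, among them the WAP genes WFDC5, WFDC12 and WFDC2, differed between HK1EBV and HK1 by -0.55 to 0.21 with CAPE and by -0.21 to 0.23 with DMSO, where SLPI differed by -1.93 and -1.86. Beside SERPINE2 on chromosome 2, CAPE differences of 10 neighbours ranged from -1.30 to 0.20 in HK1EBV and from -0.52 to 0.40 in HK1, where SERPINE2 differed by 1.23 and 1.04. Of the neighbours of SERPINB1 outside the members, 8 in number, CAPE differences ranged from -0.58 to 0.00 in HK1EBV and from -0.46 to 0.23 in HK1, where SERPINB1 differed by 1.08 and 1.02.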
